A study of Mus musculus with 10 samples.

Results

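Glucocorticoid-responsive genes were followed across the cell types of the mouse medial prefrontal cortex and between both ends of a social hierarchy. The members were 7 named genes, Fkbp5, Sgk1, Tsc22d3, Zbtb16, Ddit4, Cdkn1a and Nfkbia, found by symbol among the 30406 genes that all files shared, and all 7 were counted in every library. They were taken by name, and no threshold on measured values chose them. The cells came from male C57BL/6N mice with an age label of over 2 months and no genetic change or drug named in the labels. Rank 1 mice were the dominant and rank 4 mice the subordinate animals of their group by the tube test, in which one of a pair of mice pushes the other out of a tube. Tissue was punched from the cortex 1 day after the last such test and dissociated with papain for 60 min at 37 °C. There were 5 single-cell libraries per rank, each pooling the tissue of 2 or 3 mice, so a value belongs to a pool and the spread between mice was not measured.

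Glucocorticoids (corticosterone in mice) are adrenal steroids released in a daily rhythm and under stress. They bind the glucocorticoid receptor, which is held in the cytoplasm by heat-shock chaperones, moves to the nucleus with hormone and binds DNA at glucocorticoid response elements, palindromes with a short gap. The members stand at different points of this response. Fkbp5 is a co-chaperone that lowers the receptor's affinity for hormone and so closes a feedback loop. Sgk1 is a kinase that acts on ion channels and transporters. Tsc22d3 (also called GILZ) and Zbtb16 (PLZF) are transcriptional regulators, and Ddit4 (REDD1) inhibits the growth kinase complex mTORC1. Cdkn1a (p21) blocks cyclin-dependent kinases and is also a classic target of p53, and Nfkbia holds the inflammatory factor NF-kappaB in the cytoplasm and is itself induced by it. Ddit4, Cdkn1a and Nfkbia thus answer to other stress pathways as well.

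The DNA before the start sites shows how far the members carry the receptor's motif close to their promoters. RefSeq start sites on the GRCm38.p6 build gave 14 windows of 250 bases upstream for 6 of the 7 members, and Zbtb16 was not matched. The windows were searched on both strands for the 15-base palindrome, which is AGAACA, a gap of 3 bases of any kind and TGTTCT, and for either of these 6-base arms alone. One window, at the fifth of the Sgk1 starts, held the palindrome, at bases -189 to -175 from the start, and an arm of its own at -242 to -237. Over all 32851 windows of this length in the RefSeq table, 3 (0.00913%) held the palindrome, and 5284 (16.1%) held an arm. An arm lay in 4 of the members' 14 windows: 3 of Sgk1 and 1 of Tsc22d3, at -185 to -180. The Sgk1 window with the palindrome and the Tsc22d3 window with an arm are shown with a window of Cdkn1a, which held neither, because rank differences of these 3 genes are described further on. Capitals mark the motif, each run is read 5′ to 3′ on the gene's strand, and bases inside annotated exons were left off.
Sgk1, chr10:21993640-21993889, plus strand: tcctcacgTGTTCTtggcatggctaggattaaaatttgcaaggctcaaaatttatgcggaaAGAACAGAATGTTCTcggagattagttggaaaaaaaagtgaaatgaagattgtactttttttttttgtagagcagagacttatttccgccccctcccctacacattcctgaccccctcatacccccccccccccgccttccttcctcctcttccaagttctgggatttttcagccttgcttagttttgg
Tsc22d3, chrX:140600660-140600772, minus strand: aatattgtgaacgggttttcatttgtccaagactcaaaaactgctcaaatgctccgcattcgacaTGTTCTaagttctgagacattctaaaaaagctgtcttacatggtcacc
Cdkn1a, chr17:29090729-29090975, plus strand: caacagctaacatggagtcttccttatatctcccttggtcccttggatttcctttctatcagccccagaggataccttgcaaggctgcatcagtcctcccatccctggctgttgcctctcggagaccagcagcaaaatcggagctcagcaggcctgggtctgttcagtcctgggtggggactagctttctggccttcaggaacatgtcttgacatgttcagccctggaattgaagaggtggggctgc
A match of letters is not a measured binding site, and these data hold no binding assay.

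Fkbp5 (ENSMUSG00000024222) lies on chromosome 17 at 28399094 to 28517527 on the minus strand of GRCm38, by the GENCODE M21 annotation, and 4 small annotated genes lie inside its span. Sgk1 (ENSMUSG00000019970) lies on chromosome 10 at 21882184 to 21999903 on the plus strand, and Ddit4 (ENSMUSG00000020108) on the same chromosome at 59949669 to 59951834 on the minus strand. Tsc22d3 (ENSMUSG00000031431) lies on chromosome X at 140539528 to 140600659, minus strand, Zbtb16 (ENSMUSG00000066687) on chromosome 9 at 48654297 to 48836222, minus strand, and Nfkbia (ENSMUSG00000021025) on chromosome 12 at 55489410 to 55492647, minus strand. Cdkn1a (ENSMUSG00000023067) lies on chromosome 17 at 29090976 to 29100727 on the plus strand with 1 annotated gene on the opposite strand. Of the genes inside the span of Fkbp5, AC154912.3 and AC154912.5 lie on its own strand. Whether the counting used strand is not given in the sources used here. How reads of Fkbp5 and Cdkn1a were told apart from those of the overlapping genes was not checked.

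The libraries held between 4442750 and 29278466 counts of unique molecular identifiers (UMIs, each 1 captured RNA molecule) over 1838 to 15826 barcodes. After filtering, 46194 cells remained, 1448 to 12659 per library. Rank 4 replicate 1 stood apart with a median mitochondrial share of 10.8% in its kept cells, against 3.50% to 7.40% in the other 9 libraries, and it kept 4650 of its 10103 barcodes. No pair of libraries shared more than 104 barcodes (1.70% of the smaller library). Clusters were named from fixed marker genes that include no member, and a name stands for cells resembling that class. The largest classes were excitatory neurons (16519 cells), astrocytes (9055), endothelial cells (4414), microglia (3655) and oligodendrocyte precursors (3229). The tissue's defining neurons were thus present in the libraries together with many glial and vascular cells. Levels are given as UMIs per 1000000 UMIs of the cells of a class in a library (CPM), as mean ± SD over libraries with at least 20 such cells of both ranks. Over all kept cells the members held 1407 (Fkbp5), 2924 (Zbtb16), 7071 (Ddit4), 10807 (Sgk1), 11216 (Cdkn1a), 13599 (Tsc22d3) and 25212 (Nfkbia) UMIs.

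The members had different cell types as their place of highest level, and for 3 of them this was the endothelial cell, the lining of blood vessels. Each was ordered over 10 classes and neighbours in the order were compared within libraries by two-sided exact sign-flip permutation tests on log2(CPM + 10), adjusted over all 63 neighbour pairs of all members. The adjusted p was under 0.05 for 17 of the 63 pairs. Neighbours without such a p are not ordered reliably here.

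Fkbp5, the co-chaperone, had its highest level among the 10 ordered classes in microglia, at 48.3 ± 25.6 CPM (n = 10 libraries). The next class, oligodendrocyte precursors, had 19.3 ± 4.74 CPM and was lower in 9 of 10 libraries (exact sign-flip permutation test, adjusted p = 0.0224). Committed oligodendrocyte precursors had 21.9 ± 20.9 CPM in 2 rank 1 libraries and 17.5 ± 15.6 CPM in 5 rank 4 libraries. Inhibitory neurons (14.9 ± 4.14 CPM) and excitatory neurons (10.3 ± 3.59 CPM) followed without a difference past the threshold between them (adjusted p = 0.0547, exact permutation). Astrocytes were at 3.1 ± 3.5 CPM, pericytes held no Fkbp5 UMI in 6 of 10 libraries (12 UMIs in all), and smooth muscle cells held none in 6 of 8 (3 UMIs in all). Excitatory neurons, as the most numerous cells, still gave 47.1% of all Fkbp5 UMIs.

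Sgk1, the kinase, was most abundant in oligodendrocytes, the myelinating cells, with 613.8 ± 249.3 CPM (n = 10). That exceeded endothelial cells (309.5 ± 133.5 CPM) in 10 of 10 libraries (exact permutation test, adjusted p = 0.0123). Committed oligodendrocyte precursors had 293.9 ± 80.4 CPM (n = 7) and microglia 231.8 ± 62.3 CPM, with no adjusted p under 0.05 between these 3. Microglia exceeded oligodendrocyte precursors (118.3 ± 26.4 CPM), and these exceeded excitatory neurons (56.3 ± 8.20 CPM), each in 10 of 10 libraries (adjusted p = 0.0123, exact permutation). Astrocytes came last at 18.6 ± 14.1 CPM. Thinned to 1000 UMIs per cell, 40.1% of oligodendrocytes and 1.74% of astrocytes held an Sgk1 UMI. Before thinning the shares were 53.1% and 3.41%, at median depths of 1284 and 1503 UMIs per cell.

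Tsc22d3, the transcriptional regulator also known as GILZ, was highest in endothelial cells at 582.3 ± 452.1 CPM. Astrocytes followed at 381.6 ± 267.0 CPM and pericytes, the contractile cells on capillaries, at 205.5 ± 217.8 CPM. The step from endothelial cells to astrocytes and the step from astrocytes to pericytes each held in 10 of 10 libraries (adjusted p = 0.0123, exact permutation). The SDs are large because the level differed several-fold between replicate numbers, as described further on. Excitatory neurons had 43.6 ± 20.02 CPM and oligodendrocyte precursors 50.7 ± 27.0 CPM, without an adjusted p under 0.05 between them.

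Zbtb16, the zinc-finger repressor also known as PLZF, was a gene of neurons in these cells, with inhibitory neurons at 60.8 ± 27.4 CPM and excitatory neurons at 24.9 ± 15.6 CPM. Inhibitory neurons were higher in 10 of 10 libraries (adjusted p = 0.0123, exact permutation), and excitatory neurons exceeded oligodendrocyte precursors (14.0 ± 8.23 CPM) in 8 of 10 (adjusted p = 0.0434, exact permutation). Excitatory and inhibitory neurons gave 64.3% and 18.0% of its UMIs. Within the inhibitory neurons, cells resembling Vip interneurons had 146.5 ± 47.3 CPM (n = 6) and cells resembling Lamp5 and Ndnf interneurons 135.2 ± 61.8 CPM (n = 5). Pvalb and Sst interneurons had 31.0 ± 15.2 (n = 6) and 33.2 ± 21.6 CPM (n = 5). No neighbours among the subclasses differed with an adjusted p under 0.05, and few libraries held 20 cells of these types.

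Ddit4, the mTORC1 inhibitor, was spread over glial and vascular cells. Smooth muscle cells (201.2 ± 122.3 CPM, n = 8), astrocytes (171.1 ± 90.7), endothelial cells (166.8 ± 78.4) and oligodendrocytes (142.3 ± 64.8) formed a top group whose neighbours did not differ beyond the spread of libraries. Oligodendrocytes exceeded pericytes (89.4 ± 54.0 CPM) in 10 of 10 libraries (adjusted p = 0.0123, exact permutation). Inhibitory neurons were lowest with 33.4 ± 23.6 CPM. Among excitatory subclasses its mean ran from 53.7 ± 34.9 CPM in layer 2/3 IT neurons (n = 10) to 29.3 ± 15.7 CPM in layer 5 IT neurons (n = 10), where IT marks neurons that project within the forebrain.

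Cdkn1a, the cell cycle inhibitor, was concentrated in vessel cells. Endothelial cells had 1013 ± 505.1 CPM and gave 56.7% of its UMIs with 7.08% of the UMIs of all genes. Smooth muscle cells had 852.1 ± 589.0 CPM (n = 8), lower than endothelial cells in 7 of 8 libraries but without an adjusted p under 0.05 (0.0777, exact permutation). Microglia were at 205.0 ± 202.9 CPM, below smooth muscle in 8 of 8 libraries (adjusted p = 0.0308, exact permutation), and pericytes at 35.0 ± 20.6 CPM, below microglia in 10 of 10 (adjusted p = 0.0123, exact permutation). Excitatory neurons, at 33.0 ± 12.3 CPM, exceeded oligodendrocyte precursors (18.8 ± 11.7 CPM) in 9 of 10 libraries (adjusted p = 0.0308, exact permutation). Astrocytes had 11.3 ± 6.32 CPM, 206 UMIs in all. Thinned to 1000 UMIs per cell, 52.8% of endothelial cells, 2.70% of excitatory neurons and 1.25% of astrocytes held a Cdkn1a UMI. Unthinned, these shares were 61.1%, 9.49% and 1.86%, at median depths of 1252, 2434 and 1503 UMIs.

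Nfkbia, the inhibitor of NF-kappaB, followed the blood vessels and the immune cells of the brain. Endothelial cells had 1716 ± 732.0 CPM and microglia 1102 ± 845.9 CPM, lower in 9 of 10 libraries (adjusted p = 0.0308, exact permutation). Pericytes (624.0 ± 494.0 CPM) and smooth muscle cells (391.2 ± 111.5 CPM, n = 8) came next, and smooth muscle exceeded oligodendrocytes (145.0 ± 37.9 CPM) in 8 of 8 libraries (adjusted p = 0.0308, exact permutation). Astrocytes had 127.1 ± 17.4 CPM and exceeded oligodendrocyte precursors (68.7 ± 14.4 CPM) in 10 of 10 (adjusted p = 0.0123, exact permutation). Both neuron classes were lowest, at 38.6 ± 8.85 and 36.0 ± 10.9 CPM. Endothelial cells and microglia gave 45.1% and 24.4% of the Nfkbia UMIs. Perivascular macrophages reached the cell minimum in only 2 libraries, with 972.4 and 1374 CPM of Nfkbia and 458.0 and 1083 CPM of Cdkn1a.

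**Figure D1:**
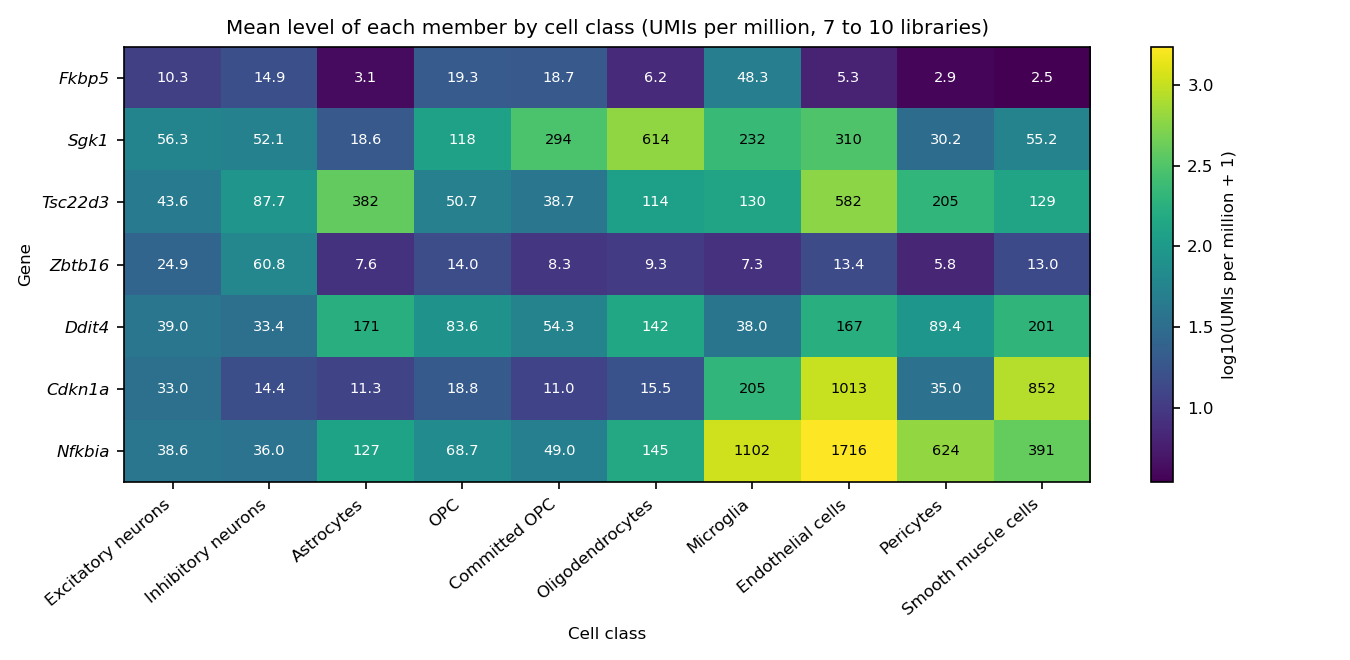
Mean level of the 7 genes (rows) in 10 cell classes (columns), in CPM, averaged over the 7 to 10 libraries with at least 20 cells of the class; colour is on a log10 scale with 1 added and the printed value is the mean. Sgk1 peaks in oligodendrocytes (613.8), Tsc22d3, Cdkn1a and Nfkbia in endothelial cells (582.3, 1013 and 1716), Zbtb16 in inhibitory neurons (60.8) and Fkbp5 in microglia (48.3).

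Genes with the most similar pattern were sought by Pearson correlation of class means of log2(CPM + 10) over the 10 classes, among 11328 genes of at least 20 CPM in some class. With 10 points drawn from the same libraries these are descriptions only. The closest to Fkbp5 were Bid (r = 0.94), Man2b1 and Sh2b2, and to Sgk1 they were Smad7 (r = 0.94), Foxn3 and Pla2g4a. Tsc22d3 was closest to Slc3a2 (r = 0.93), Castor1 and Foxo1, Zbtb16 to Ric8b (r = 0.97), Socs5 and Usp29, and Ddit4 to Cavin3 (r = 0.94), Smc4 and Nosip. Cdkn1a was closest to Maff (r = 0.96), Sertad1 and Sbno2, and the genes close to Nfkbia included Rps27rt (r = 0.96) and Msn (r = 0.96). Among the members themselves the highest coefficient was between Cdkn1a and Nfkbia (r = 0.78), followed by Tsc22d3 and Nfkbia (r = 0.74), and the lowest was between Fkbp5 and Ddit4 (r = -0.72).

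The level of several members depended more on the replicate number than on the rank. Per the file headers, software 3.1.0 made the matrices of replicates 1 to 3 and software 4.0.0 those of replicates 4 and 5, in both ranks, so the version, its gene annotation and whatever else separated these preparations cannot be told apart. Over all kept cells, Tsc22d3 averaged 237.1 CPM in the 6 libraries of replicates 1 to 3 and 53.1 CPM in the 4 libraries of replicates 4 and 5, a ratio of 4.47, and the ranges (100.02 to 413.5 and 43.3 to 61.7 CPM) did not overlap. The same direction was found in 8 of 8 classes present in every library, with ratios of 2.35 to 6.59. Ddit4 was 3.14 times and Nfkbia 2.72 times as high in replicates 1 to 3, without overlap, and both were higher in 8 of 8 classes. Zbtb16 went the other way, with 10.7 against 37.6 CPM (ratio 0.28, no overlap), and was lower in replicates 1 to 3 in 8 of 8 classes. Fkbp5 (ratio 0.67) was also lower there in 8 of 8 classes, but its ranges over all kept cells overlapped. Sgk1 (1.32) and Cdkn1a (2.36) overlapped, and were higher in 4 of 8 classes each. Because both ranks have the same numbers, this split does not separate the ranks. How many of all genes also did not overlap in this split was not counted here, so it is not shown to be particular to the members.

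**Figure D2:**
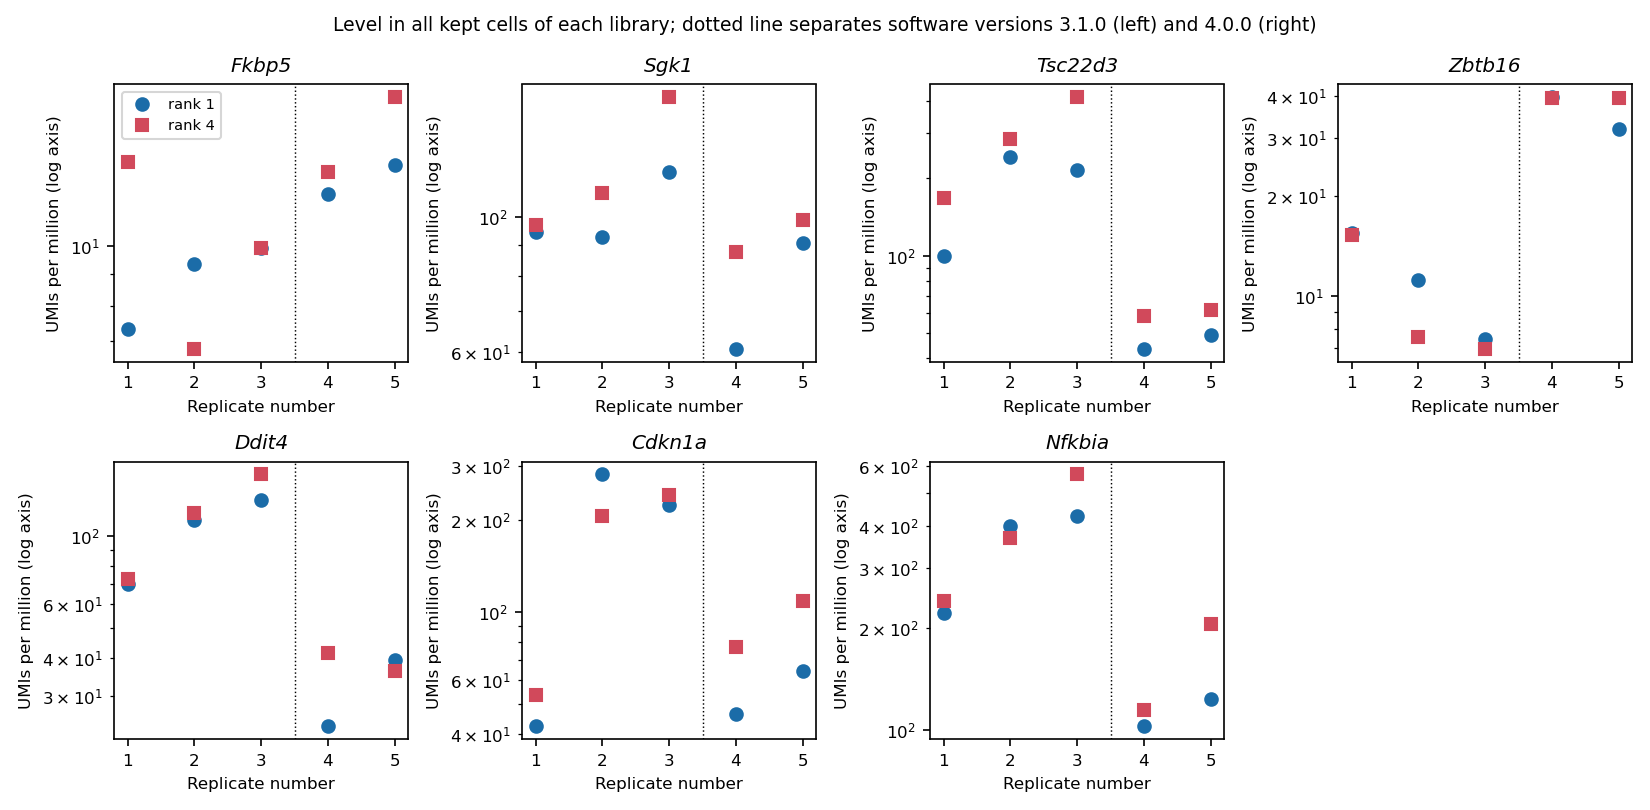
Level of each gene in all kept cells of a library (vertical axis, CPM, log scale) against the replicate number (horizontal axis), with circles for rank 1 and squares for rank 4; the dotted line parts software versions 3.1.0 and 4.0.0. Tsc22d3, Ddit4 and Nfkbia sit higher to the left of the line and Zbtb16 higher to the right, in both ranks.

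The comparison of the ranks asked whether these genes differed between dominant and subordinate mice, in which cell types and by how much. The members mostly had lower values in rank 1, and none passed the test over all genes with the software version as covariate. With the replicate number as a block, Tsc22d3 was lower in rank 1 in astrocytes and endothelial cells and Cdkn1a in excitatory neurons. None of the 3 passed once rank 4 replicate 1, the library of high mitochondrial share, was left out, though all 3 stayed lower in rank 1. That fit holds 4 pairs in place of 5, and the part of the lost pair in this change was not tested. UMIs were summed per library and class, and edgeR's quasi-likelihood test was fitted over all genes of the class with Benjamini-Hochberg adjustment. Differences are log2 fold changes of rank 1 over rank 4, so a negative value is lower in dominant mice.

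In the 9 classes with enough libraries, 46 of the 63 combinations of member and class passed the filter on low counts. Of the 46, 37 were lower in rank 1, where 51% of all gene and class tests were. An unadjusted p under 0.05 was reached by 6 of the 46, all lower, against 1.12% of all tests lower and 2.33% in either direction. An adjusted p under 0.05 was reached by none (0% of all tests, smallest adjusted p of a member 0.998). With the replicate block 3 of 46 passed, against 0.365% of all tests, and 15 had an unadjusted p under 0.05, against 10.5%. Fits without rank 4 replicate 1 covered 8 classes in place of 9, and in the block this takes out replicate number 1 and leaves 4 pairs. The block then gave 0 of 39 tests with an adjusted p under 0.05 (0.0601% of all tests, smallest of a member 0.0906) and 11 with an unadjusted one (8.42%). The fit with the version covariate gave 0 of 42 (0%) and 9 with an unadjusted p under 0.05 (3.64%) without that library. In excitatory neurons 7 of 7 tested members and in astrocytes 6 of 6 had negative values, where 51.2% and 53.6% of all genes did. In endothelial cells 3 of 5 and in pericytes 1 of 3 did, where 50.2% and 51.4% of all genes did. Members measured in the same libraries are not independent of each other, and no member's ranks were free of overlap in any of the pairs named below.

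Tsc22d3 was lower in rank 1 in 9 of 9 classes, with a median log2 fold change of -0.39. Counted by class and replicate number, rank 1 was lower in 36 of 43 comparisons. These come from the same 5 pairs of libraries and are not independent of each other. In astrocytes rank 1 libraries had 162, 579.7, 521, 134 and 131 CPM in replicates 1 to 5, and rank 4 libraries 341, 834, 739, 199.995 and 173 CPM. The ranks overlapped widely, but in 5 of 5 pairs the rank 1 library was the lower one. The log2 fold change was -0.58 (SE 0.33, unadjusted p = 0.102 by edgeR's quasi-likelihood test) with the version covariate and -0.64 (SE 0.12, adjusted p = 0.00537) with the replicate block, in which 0.43% of all genes of astrocytes passed and were lower. The block without rank 4 replicate 1 gave -0.52 (SE 0.14, adjusted p = 0.106). Leaving out rank 1 replicate 1 moved the first value to -0.35, and leaving out rank 4 replicate 1 moved it to -0.75. Within replicates 1 to 3 it was -0.62 and within replicates 4 and 5 it was -0.47.

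In endothelial cells Tsc22d3 stood at 275, 914, 940.5, 174 and 162 CPM in rank 1 and at 379, 1249, 1248, 222 and 259 CPM in rank 4. Again the ranks overlapped and rank 1 was lower in 5 of 5 pairs. The log2 fold change was -0.48 (SE 0.40, unadjusted p = 0.249, edgeR) with the version covariate and -0.49 (SE 0.11, adjusted p = 0.0264) with the block, where 0.62% of all endothelial genes passed and were lower. The block without rank 4 replicate 1 gave -0.50 (SE 0.13, adjusted p = 0.134). Without rank 1 replicate 1 it was -0.24 and without rank 4 replicate 1 it was -0.71. Within replicates 1 to 3 it was -0.50 and within replicates 4 and 5 -0.45.

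Oligodendrocyte precursors had 43.4, 55.2, 75.6, 20.5 and 23.7 CPM of Tsc22d3 in rank 1 and 71.6, 59.0, 101.9, 22.5 and 33.9 CPM in rank 4, lower in rank 1 in 5 of 5 pairs with overlapping ranks. This gave a log2 fold change of -0.52 (SE 0.24, unadjusted p = 0.0478, edgeR), with an adjusted p of 0.507 in the block and -0.32 in the block without rank 4 replicate 1. Summed over all kept cells, a value that also depends on the mix of cells, Tsc22d3 was at 100.02, 241, 215, 43.3 and 49.0 CPM in rank 1 and 168, 284, 413, 58.4 and 61.7 CPM in rank 4. That is lower in 5 of 5 pairs, with a log2 fold change of -0.57 (SE 0.25, unadjusted p = 0.0433, edgeR) and an adjusted p of 0.289 in the block. It was -0.35 without rank 4 replicate 3. Of all genes, 1.37% had an unadjusted p under 0.05 and were lower in rank 1 in this comparison, and Tsc22d3 was the 1 member among the 7 to do so; no member passed the adjustment (0% of all genes).

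**Figure D3:**
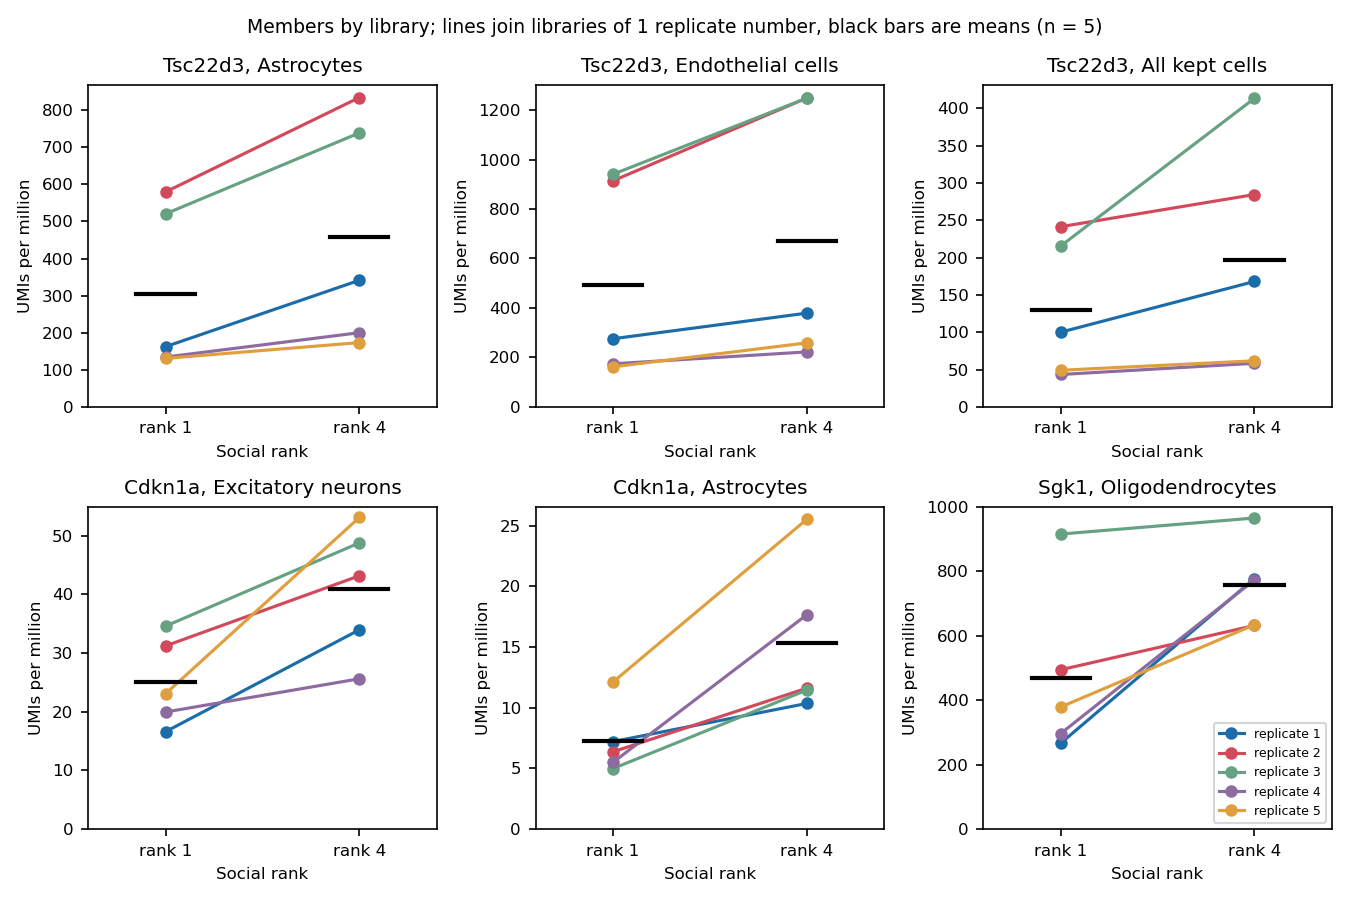
Levels of Tsc22d3, Cdkn1a and Sgk1 by library (vertical axes, CPM, from 0) in rank 1 and rank 4, with a line joining the libraries of 1 replicate number and black bars for the means of 5 libraries. Every line rises from rank 1 to rank 4 in the 6 panels, while the points of both ranks overlap in each. Cdkn1a in inhibitory neurons, lower in rank 1 in 4 of 5 pairs, is not among the panels. Their shared direction thus comes partly from the choice of panels.

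Cdkn1a was the member with the largest median difference over its tested classes, -0.83, with 5 of 6 classes lower. In excitatory neurons it was at 16.6, 31.2, 34.6, 19.9 and 23.1 CPM in rank 1 and at 34.0, 43.2, 48.8, 25.6 and 53.1 CPM in rank 4. The rank 1 library was lower in 5 of 5 pairs, and the 2 highest rank 1 libraries lay above the lowest rank 4 library. Depth differed within pairs: the median UMIs per excitatory neuron were 7461 in rank 1 against 2391 in rank 4 in replicate 4 and 3257.5 against 1657 in replicate 5. The largest of the 5 clusters of these neurons (5615 cells) took 52.3% of its cells from a single rank 4 library. The part of depth and make-up in this result was not tested. The log2 fold change was -0.75 (SE 0.23, unadjusted p = 0.00694, edgeR) with the version covariate and -0.76 (SE 0.13, adjusted p = 0.0199) with the block, where 0.518% of all genes of these neurons passed and were lower. With the block and without rank 4 replicate 1 it was -0.69 (SE 0.14, adjusted p = 0.125). It also passed when genes of low count were kept in the fit (adjusted p = 0.0246). It was -0.65 within replicates 1 to 3, -0.85 within replicates 4 and 5, -0.84 without rank 4 replicate 1 and closest to 0 at -0.52 without rank 4 replicate 5.

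In astrocytes the Cdkn1a level was low, 7.21, 6.37, 4.99, 5.50 and 12.1 CPM in rank 1 and 10.4, 11.6, 11.5, 17.7 and 25.5 CPM in rank 4, from 3 to 61 UMIs per library. Rank 1 was lower in 5 of 5 pairs, and 1 rank 1 library lay within the rank 4 range. On the log2 scale the difference was -0.99 (SE 0.27, unadjusted p = 0.00264, edgeR), and with the block -1.01 (SE 0.26, adjusted p = 0.0525). Inhibitory neurons had 2.46, 20.9, 24.8, 3.67 and 7.02 CPM in rank 1 (2 to 8 UMIs per library) and 7.64, 8.30, 32.1, 12.7 and 24.4 CPM in rank 4, with overlap. Their log2 fold change was -1.09 (SE 0.50, unadjusted p = 0.0422, edgeR), lower in 4 of 5 pairs on 100 UMIs in all, with an adjusted p of 0.237 in the block.

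The cell types with the most Cdkn1a gave smaller or less certain values. In endothelial cells it was at 312, 1473, 1691, 712 and 742 CPM in rank 1 and 307, 1558, 1421, 934 and 979.6 CPM in rank 4, with a log2 fold change of -0.12 (SE 0.49, unadjusted p = 0.804, edgeR). In smooth muscle cells it was 0.23 (SE 0.55, unadjusted p = 0.682), and 0.63 with the block (SE 0.17, adjusted p = 0.0987). In microglia it was -0.92 (SE 0.78, unadjusted p = 0.26), and -0.83 with the block (adjusted p = 0.355). Whether the effect differed between classes is tested below.

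Free RNA from broken vessel cells can add Cdkn1a UMIs to other cells, so the endothelial markers in neurons and astrocytes are given beside these results. All 6 endothelial markers had counts in both classes. Their summed level in excitatory neurons was 25.9 to 124.2 CPM in rank 1 and 38.5 to 94.5 CPM in rank 4, lower in rank 1 in 3 of 5 pairs. In astrocytes it was 46.6 to 163.3 CPM in rank 1 and 82.9 to 133.6 CPM in rank 4, also lower in 3 of 5 pairs. If these markers and Cdkn1a were carried over in the ratio they have in endothelial cells, the carry-over would be 1.08 to 6.46 CPM in excitatory neurons, or 5.24% to 21.7% of the measured level (median 11.4%), and lower in rank 1 in 3 of 5 pairs. In astrocytes it would be 3.18, 4.94, 3.44, 3.11 and 6.53 CPM in rank 1 and 2.48, 6.09, 8.44, 9.68 and 8.10 CPM in rank 4, or 23.9% to 77.5% of the level (median 54.3%). This carry-over was itself lower in rank 1 in 4 of 5 pairs, the direction of the Cdkn1a difference there. Microglial markers, scaled in the same way, gave 1.68% to 41.3% of the astrocyte level and 0.129% to 4.46% of the level in excitatory neurons, and this carry-over was lower in rank 1 in 5 of 5 pairs in both classes. In 3 libraries the endothelial and microglial shares together passed the whole astrocyte level of Cdkn1a: rank 1 replicate 2 (77.5% and 24.7%), rank 1 replicate 3 (69.0% and 41.3%) and rank 4 replicate 3 (73.6% and 39.1%). For Tsc22d3 in astrocytes the endothelial share was 0.37% to 1.73% of its level and the microglial share 0.136% to 2.36%.

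Heat-shock genes, which respond to cell stress and handling, were also mostly lower in rank 1. The summed level of 5 heat-shock genes was lower in rank 1 in 5 of 5 pairs in astrocytes (86.5 to 284.9 CPM against 143.0 to 336.1 CPM) and in oligodendrocytes, and in 4 of 5 pairs in endothelial cells and excitatory neurons. The 10 dissociation and immediate early genes were lower in rank 1 in 3 of 5 pairs in astrocytes and in excitatory neurons and in 1 of 5 in endothelial cells. Single genes of both lists passed with the block: in excitatory neurons Egr1 was lower (-0.55, SE 0.12, adjusted p = 0.0328) and Btg2 higher (0.73, SE 0.13, adjusted p = 0.0199), and in endothelial cells Hsph1 was lower (-0.64, SE 0.13, adjusted p = 0.0168). In astrocytes Dnajb1 was -0.66 (SE 0.20, unadjusted p = 0.00529, edgeR) and Btg2 0.41 (SE 0.19, unadjusted p = 0.0491), and neither passed with the block. Markers of excitatory neurons in astrocytes summed to 121.0 to 519.5 CPM in rank 1 and 129.4 to 630.4 CPM in rank 4, lower in 5 of 5 pairs. The part of these differences in the results for Tsc22d3 and Cdkn1a was not tested. For Egr1, Btg2 and Hsph1 the block without rank 4 replicate 1 is not given here.

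Sgk1 was lower in rank 1 in oligodendrocytes, the class where it is highest, by its values but not by the adjusted test. Rank 1 libraries had 266, 495, 916, 297 and 379 CPM and rank 4 libraries 778, 632, 966, 774 and 635 CPM. Rank 1 was lower in 5 of 5 pairs, and 1 rank 1 library, replicate 3, lay within the rank 4 range. On the log2 scale the difference was -0.73 (SE 0.30, unadjusted p = 0.0305, edgeR), and -0.79 with the block (SE 0.19, adjusted p = 0.806). Rank 1 replicates 2, 3 and 4 held 22, 42 and 44 oligodendrocytes, and rank 4 replicate 2 held 47. The fewest Sgk1 UMIs in a library were 22. A cluster of 442 oligodendrocytes took 53.6% of its cells from a single library. The part of cell numbers and make-up in this result was not tested. In excitatory neurons, which gave 30.7% of its UMIs, the log2 fold change was -0.00, and over 7 classes it ran from -0.73 to 0.20.

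The other 4 members had no class with an adjusted p under 0.05 in either fit. Fkbp5 was tested in 3 classes, with -0.48 (SE 0.30) in microglia, -0.17 (SE 0.23) in excitatory neurons and -0.11 (SE 0.29) in inhibitory neurons. Zbtb16 in inhibitory neurons was 0.45 (SE 0.26, unadjusted p = 0.0983, edgeR), the one tested class where it was higher in rank 1. Its rank 1 libraries held 68.9, 62.7, 24.8, 112.6 and 82.5 CPM and its rank 4 libraries 52.2, 41.5, 21.4, 67.3 and 74.3 CPM, higher in rank 1 in 5 of 5 pairs, with an adjusted p of 0.469 in the block. Ddit4 ran from -0.41 in oligodendrocytes to 0.28 in microglia over 9 classes, 5 of them lower.

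Nfkbia was lower in 7 of 9 classes, from -0.95 (SE 0.60) in microglia to 0.60 (SE 0.50) in pericytes. In smooth muscle cells, where 4 libraries per rank had 20 cells, rank 1 had 247, 447, 390.3 and 202 CPM and rank 4 had 433, 535, 452 and 423 CPM. This gave -0.60 (SE 0.26, unadjusted p = 0.0392, edgeR), lower in 2 of 3 pairs, and -0.39 with the block (adjusted p = 0.631). In endothelial cells, its main source, it was 0.10 (SE 0.34).

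**Figure D4:**
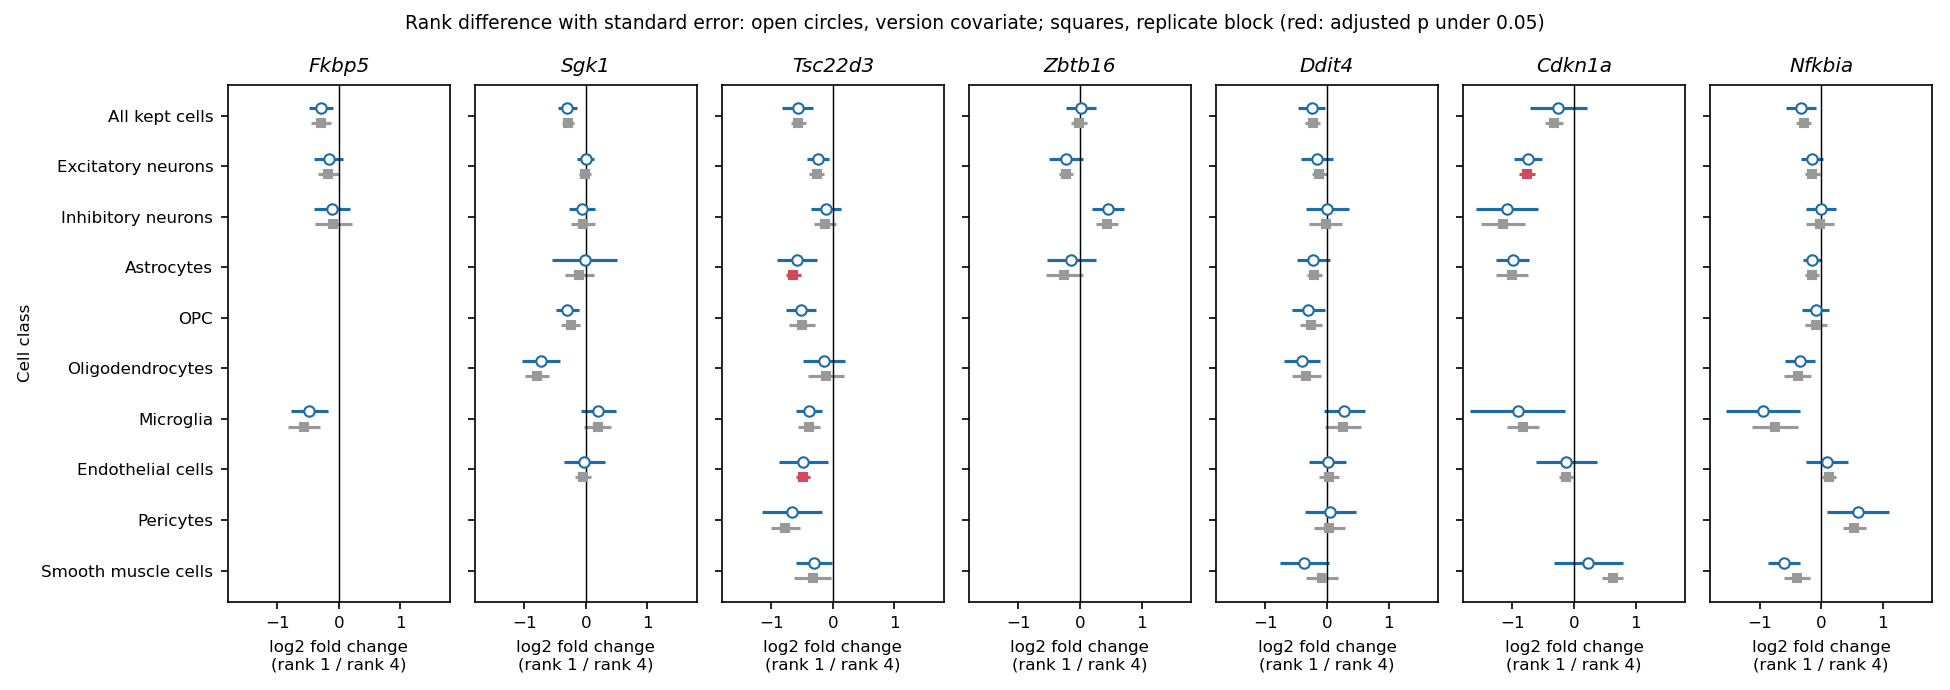
Log2 fold change of rank 1 over rank 4 (horizontal axes) with its standard error for each gene (panels) and cell class (rows), from the fit with the version covariate (open circles) and the fit with the replicate block (squares, red where the adjusted p is under 0.05). Red squares mark Tsc22d3 in astrocytes (-0.64) and endothelial cells (-0.49) and Cdkn1a in excitatory neurons (-0.76); gaps are combinations with too few counts.

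Excitatory neurons were divided into subclasses by layer and projection, of which 4 could be tested: layer 2/3 IT, layer 5 IT, layer 5/6 near-projecting (NP) and layer 6 corticothalamic (CT) neurons. Of 28 combinations with the members, 24 were tested and 20 were lower in rank 1, against 49% of all tests. Of the 24, 5 had an unadjusted p under 0.05, all lower (2.6% of all tests lower), none passed the adjustment (0% of all tests, smallest adjusted p 0.915), and 1 passed with the block (0.611%). Immediate early genes took part in the clustering: 439 excitatory cells led by Btg2, Egr4 and Nr4a2 stayed unnamed, and 234 of the layer 6 CT neurons formed a cluster with Gadd45b, Nr4a2 and Btg2 among its leading genes. The member that passed was Cdkn1a in layer 2/3 IT neurons, at 9.47, 17.2, 13.1, 13.4 and 17.8 CPM in rank 1 and 27.5, 13.7, 45.9, 23.2 and 38.9 CPM in rank 4. It was lower in 4 of 5 pairs, with overlap from rank 4 replicate 2, and its log2 fold change was -1.03 (SE 0.29, unadjusted p = 0.00255, edgeR), with a blocked adjusted p of 0.0426, and 0.224 in the block without rank 4 replicate 1.

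Cdkn1a in layer 5 IT neurons, where it was highest among the subclasses (41.3 ± 17.7 CPM, n = 10), was 24.7, 38.1, 46.1, 22.3 and 32.3 CPM in rank 1 and 43.6, 47.3, 79.7, 22.9 and 56.4 CPM in rank 4. This gave -0.56 (SE 0.26, unadjusted p = 0.0463, edgeR), lower in 5 of 5 pairs with overlap, and -0.33 without rank 4 replicate 5. Zbtb16 in layer 2/3 IT neurons was at 5.68, 5.73, 0, 10.1 and 29.1 CPM in rank 1 and 13.1, 4.56, 13.1, 30.5 and 34.8 CPM in rank 4 (0 to 68 UMIs per library), with -0.83 (SE 0.36, unadjusted p = 0.036); leaving out rank 1 replicate 5 gave -1.45, and leaving out replicate 4 of that rank gave -0.56. Tsc22d3 in layer 6 CT neurons was 36.4, 63.9, 26.0 and 27.2 CPM in rank 1 and 65.8, 119.5, 37.4 and 30.2 CPM in rank 4 for the 4 libraries per rank with 20 cells, with -0.56 (SE 0.21, unadjusted p = 0.0166, edgeR), and -0.34 without rank 1 replicate 1. Nfkbia in layer 5/6 NP neurons was 66.8, 33.8, 6.93 and 36.96 CPM in rank 1 (replicates 1, 2, 4 and 5) and 85.7, 111.9, 43.3 and 54.3 CPM in rank 4 (replicates 1, 3, 4 and 5), with -0.83 (SE 0.36, unadjusted p = 0.0302) on 2 to 23 UMIs per library, and -0.52 without rank 1 replicate 4. In excitatory neurons as a whole, Nfkbia carried over in proportion to markers would be 9.01% to 24.4% of its level from endothelial cells, lower in rank 1 in 3 of 5 pairs, and 2.85% to 26.9% from microglia, lower in 5 of 5. The subclass differences of Cdkn1a in layer 5 IT, Zbtb16, Tsc22d3 and Nfkbia had blocked adjusted p-values of 0.186 to 0.633.

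Averaged over the 8 classes present in every library, no member separated the ranks. The difference of rank means of log2(CPM + 10) was -0.40 for Cdkn1a (two-sided exact permutation p = 0.27), -0.35 for Tsc22d3 (p = 0.516, exact), and -0.22 for Sgk1 (p = 0.0873, exact). The other 4 of the 7 members lay between -0.13 and -0.07 with exact permutation p-values of 0.651 to 0.825. Leaving out single libraries moved the Tsc22d3 average to between -0.60 (without rank 4 replicate 4) and -0.10 (without rank 4 replicate 3), and the Cdkn1a average to between -0.59 (without rank 1 replicate 3) and -0.23 (without rank 1 replicate 1). There are 252 ways to divide the libraries and the smallest possible p is 0.00794. Within pairs Tsc22d3 was lower in 5 of 5, by 0.03 to 0.76 in size, which gives the smallest p that 5 pairs allow (exact sign-flip p = 0.0625). Cdkn1a was lower in 4 of 5 pairs.

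Differences between classes in the rank effect were tested against excitatory neurons by exact permutation of the rank labels, in 56 combinations. None had a p under 0.05. The smallest p was 0.0952, for Sgk1 in oligodendrocytes, whose rank difference was lower than in excitatory neurons by -0.80 (adjusted p = 0.937, exact permutation over 5 libraries per rank). Compared within replicate numbers, 5 combinations had all 5 pairs on one side and so the smallest p that 5 pairs allow (exact sign-flip p = 0.0625, adjusted p = 0.7): Sgk1 in oligodendrocytes (-0.80) and oligodendrocyte precursors (-0.29), Tsc22d3 in astrocytes (-0.40), Zbtb16 in inhibitory neurons (0.52) and Nfkbia in endothelial cells (0.24). Since 5 pairs cannot give a p under 0.05, the paired comparison could not pass the threshold. A difference in effect between cell classes was thus not shown for any member by permutation of the rank labels, and the paired comparison could not decide it.

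The genes of the receptors and of the hormone's enzyme had no rank difference past the adjusted test. Nr3c1, the glucocorticoid receptor, was detected in all 10 ordered classes, with 183.9 ± 38.0 CPM in endothelial cells, 143.4 ± 40.5 in astrocytes, 101.2 ± 33.8 in excitatory neurons and 63.1 ± 18.3 in inhibitory neurons. Its rank differences were 0.24 (SE 0.15) in astrocytes, 0.14 (SE 0.14) in excitatory neurons and 0.08 (SE 0.16) in endothelial cells. They were above 0 in 6 of 8 tested classes and below it in inhibitory neurons (-0.27, SE 0.21) and pericytes (-0.17, SE 0.28), none with an unadjusted p under 0.05. Nr3c2, the mineralocorticoid receptor, had 33.8 ± 16.8 CPM in inhibitory neurons and 21.7 ± 13.1 in astrocytes, with -0.08 (SE 0.19) in astrocytes. Hsd11b1, the enzyme that regenerates active glucocorticoid inside cells, was at 101.7 ± 33.8 CPM in astrocytes and at 2.42 ± 3.29 in endothelial cells. In astrocytes it was 116.5 ± 34.8 CPM in rank 1 and 86.9 ± 28.5 CPM in rank 4, a log2 fold change of 0.41 (SE 0.18, unadjusted p = 0.0428, edgeR), with an adjusted p of 0.128 in the block.

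Other known glucocorticoid targets, a list of 18 genes apart from the members, had more negative than positive values in 8 of 9 classes, and none passed the adjusted test with the version covariate. Smooth muscle cells were the exception, with 8 of 9 tested targets higher in rank 1 (median 0.29) where 3 of 4 tested members were lower (median -0.34). In astrocytes 12 of 16 tested genes were lower in rank 1 with a median of -0.06, against -0.02 over all genes, and Usp2 and Per1 had an unadjusted p under 0.05 (0.748% of all genes did and were lower). Usp2, a deubiquitinase with a daily rhythm, was at 104.9 ± 40.1 CPM in rank 1 and 167.3 ± 40.6 CPM in rank 4, a log2 fold change of -0.71 (SE 0.20, unadjusted p = 0.00314, edgeR), and it passed with the block (adjusted p = 0.012). Per1, a clock gene with a response element, was -0.52 (SE 0.21, unadjusted p = 0.0298) with a blocked adjusted p of 0.0975. In excitatory neurons 9 of 13 tested genes were lower, with a median of -0.23 against -0.00 over all genes, and 1, Mt1, had an unadjusted p under 0.05 (2.15% of all genes did and were lower). There the metallothionein gene Mt1 was at 176.8 ± 90.1 CPM in rank 1 and 313.4 ± 210.8 CPM in rank 4 (-0.82, SE 0.37, unadjusted p = 0.0473, edgeR). Mt1 and Mt2 passed with the block (adjusted p = 0.0199 and 0.0317). In endothelial cells 9 of 13 were lower (50.2% of all genes were), with a median of -0.08. Fam107a had an unadjusted p under 0.05 there (log2 fold change -0.76, SE 0.27, edgeR; 0.474% of all genes did and were lower), and Mt1 passed with the block (adjusted p = 0.0483). In inhibitory neurons Mt1 was -0.9995 (SE 0.40, unadjusted p = 0.0209, edgeR) and passed with the block (adjusted p = 0.00153). For these other targets the block without rank 4 replicate 1 is not given here. That blocked fit passed 0.0601% of all tests over 8 classes, against 0.365% over 9 classes with all libraries. Carry-over of Mt1 from other cells was not estimated.

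The lists for the receptor's partners and for other pathways that feed some members held from 6 to 8 genes. Of all genes, 53.6% were lower in rank 1 in astrocytes, 50.2% in endothelial cells, 51.2% in excitatory neurons and 49.0% in inhibitory neurons. Of the receptor's chaperones, 6 of 6 were lower in astrocytes and in endothelial cells and 3 of 6 in excitatory neurons, none with an unadjusted p under 0.05, while in microglia Ptges3 was -0.60 (SE 0.21, unadjusted p = 0.0129, edgeR). Of 8 receptor coregulators, Ncoa1 in excitatory neurons was higher (0.24, SE 0.11, unadjusted p = 0.0424, edgeR, blocked adjusted p = 0.291), and 4 of 8 were lower there and in astrocytes. The 1 coregulator tested in smooth muscle cells, Ncor1, was 0.74 (SE 0.28, unadjusted p = 0.0223, edgeR). Other p53 targets, which share that input with Cdkn1a, were lower in 6 of 7 cases in astrocytes and 5 of 7 in excitatory neurons, none with an unadjusted p under 0.05. In inhibitory neurons 2 of 6 tested p53 targets and 2 of 6 chaperones were lower. NF-kappaB targets were higher in 5 of 5 cases in endothelial cells and lower in 5 of 6 in excitatory neurons, also with no such p. Among ATF4 and unfolded protein response genes, the stress pathway shared with Ddit4, 5 of 5 were lower in astrocytes and 5 of 6 in excitatory neurons. Ddit3 (CHOP) in excitatory neurons was -0.40 (SE 0.11, unadjusted p = 0.00345, edgeR), with a blocked adjusted p of 0.0766, and in oligodendrocyte precursors it was -0.82 (SE 0.22, unadjusted p = 0.00156), with one of 0.0996.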

How the data were processed

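The authors' deposited files were, for each of the 10 libraries, a sparse matrix of raw UMI counts per gene and cell barcode, with gene and barcode lists. Per the submitters' processing notes they came from Cell Ranger 4.0.0 and the mm10 build, and per the file headers replicates 1 to 3 were written by software 3.1.0 and replicates 4 and 5 by 4.0.0. The 30406 gene identifiers in every list were used. Cells with at least 500 genes and at most 15% mitochondrial UMIs were kept. Scrublet, as in scanpy 1.11.5, called doublets, and in replicate 1 of both ranks, where it marked none, the median threshold of the other libraries (0.245) was used, giving 3205 doublets of 64937 barcodes. Leiden clustering at resolution 1 gave 28 clusters, 3 of them unnamed; the members, receptors, chaperones, coregulators and other glucocorticoid targets (43 genes) took no part in it, and the genes of the other lists could. Rank was tested on summed counts with edgeR 4.0.16 (TMM, filterByExpr, software version as covariate), tested on simulated data, and with DESeq2 1.42.0 as an alternative.

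The replicate numbers from the titles were taken to pair the libraries: deviations of same-numbered libraries from their rank means correlated at 0.43 to 0.87 in 45 of 45 checks, and a library's own number was its best match in 31. After the software version was also removed the range was -0.13 to 0.82, with 37 over 0.1 and 19 matching best with their own number. Counts of pairs and calls with the block rest on this pairing. The labels call the replicates independent pools. The members and lists were chosen with earlier results of these data known, so no list-wide p is given. Per-library values are printed for a member and class with an unadjusted p under 0.05, or an adjusted p under 0.05 with or without the block; Cdkn1a in endothelial cells and Zbtb16 in inhibitory neurons were added after their values were seen. Two-sided exact permutation tests over libraries were used for levels and class averages, with 10 CPM added before logs. Shares of cells were taken on cells thinned to 1000 UMIs, leaving out 3145 of 17447 (18.0%) rank 1 and 5999 of 28747 (20.9%) rank 4 cells with fewer. Of the genes similar in pattern to the members, 1 is not reported here.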

Additional observations from a re-analysis of the deposited data

Results flagged for a closer look

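In pericytes of rank 1, Tsc22d3 was at 406 CPM in replicate 2, far from the next library at 114 CPM, a gap of 0.81 of the group's range. It was the 1 flag among 98 groups of member, class and rank, where chance flags about 1 in 20.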

How the results depend on the processing

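The 9 named rank differences in classes or all kept cells kept their direction under each alternative that could be fitted: the replicate block, no version covariate, DESeq2, no filter on low counts, at least 50 cells, at most 5% mitochondrial UMIs, resolution 2, each replicate set alone and each library left out. The 5 in subclasses kept theirs with the block and with each library left out, and the other settings were not run for them. The tests over classes with an adjusted p under 0.05 went from 0 of 46 to 3 with the replicate block and to 1 with no filter on low counts, and those over subclasses from 0 of 24 to 1 with the replicate block. The block changed no other call of a member, and the genes of other lists that it called are given beside their values. The block without rank 4 replicate 1, chosen after seeing the data, called 0 of 39 tests over classes, 0 of 22 over subclasses and 0 of 7 over all kept cells. Over all kept cells the count was 0 of 7 in each setting. For the averages over classes, 1 member, Sgk1, had an exact permutation p under 0.05 with 50 CPM added (p = 0.0397) and without rank 4 replicate 2 (p = 0.0159), so leaving out libraries gave 0 to 1. Leaving out single libraries turned the sign of averages that were near 0: Ddit4 ranged from -0.27 to 0.12, Nfkbia from -0.205 to 0.043, Zbtb16 from -0.287 to 0.047 and Fkbp5 from -0.198 to 0.011. Those of Tsc22d3 (-0.60 to -0.10), Cdkn1a (-0.59 to -0.23) and Sgk1 (-0.30 to -0.17) kept their sign, and the Cdkn1a average was -0.63 with 1 CPM added and -0.20 with 50. Moves over 1.5 times also included Cdkn1a in inhibitory neurons (-1.78 in replicates 4 and 5 alone), Tsc22d3 in all kept cells (-0.37 there) and Tsc22d3 in endothelial cells (-0.72 with at most 5% mitochondrial UMIs). As shares of cells thinned to 1000 UMIs, 8 of 63 neighbour pairs in the order of levels passed in place of 17, and the highest class was the same for 6 of the 7 members. The cause of these changes was not tested. Combinations that left too few libraries or counts, such as Cdkn1a in inhibitory neurons in replicates 1 to 3, gave no fit. Low counts limit Fkbp5 outside microglia and neurons and Cdkn1a in astrocytes and inhibitory neurons.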

Other observations

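Within neurons, Sgk1 had 99.998 ± 11.3 CPM in layer 6 CT neurons (n = 8), 79.9 ± 10.1 in Pvalb interneurons (n = 6), 47.3 ± 9.46 in layer 2/3 IT neurons (n = 10) and 35.7 ± 9.19 in layer 5 IT neurons (n = 10). The lowest layer 6 CT library, at 89.7 CPM, lay above the highest layer 2/3 IT library, at 57.3 CPM, and these classes are not neighbours in the order that was tested. Perivascular macrophages, with at least 20 cells in 2 libraries, had 444.5 and 554.4 CPM of Tsc22d3 and no UMI of Zbtb16 in either. Their 55.6 and 72.3 CPM of Fkbp5 lay above its microglial mean, but this class was not among the 10 that were ordered.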
